A study of Mus musculus with 4 samples.

Results

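The liver contrast described here sets mice fed a diet supplemented with nucleoprotein (NP) against mice fed a purified diet low in NP. It comprises both liver arrays of a set of 4, the other 2 being spleen arrays of the same design, and every one of the 41174 probes on the array that is not a control, which carry 27666 gene labels. Each array is of the Agilent whole mouse genome design with 2 colours, and total RNA of one diet was labelled with Cy3 and that of the other with Cy5. On liver array 1 the NP pool was in Cy5 and on liver array 2 it was in Cy3, and the labels call the pair a dye swap. The animals were male C57BL/6J mice of 13 weeks, fed for 4 weeks. The control group, called low NP (LNP), received the CLEA basic purified diet, which held 0.03% nucleic acids. The NP group received the same diet with 1.2% of a nucleoprotein preparation (S-nuclegen), which brought nucleic acids to 0.5%. The housing notes also name a CE-2 chow for the colony. RNA was pooled within each diet and tissue before labelling, and the number of mice in a pool is not stated in the labels. Array titles speak of a pooled sample 1 and a pooled sample 2, one for each dye orientation, without saying whether these are separate pools or the same RNA. The arrays were treated as 1 pool per diet measured with both dye orientations, and no test between diets was run. The distance between arrays given below therefore holds dye and measurement error and may or may not hold differences between pools.

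Dietary nucleoprotein is nucleic acid bound to protein, which is broken down in the gut to nucleotides, nucleosides and bases. The liver takes up what the gut passes on, salvages part of it, and degrades purines to urate and, in mice, to allantoin. Liver is also the main source of the acute-phase proteins, secreted plasma proteins such as serum amyloid A and the orosomucoids whose synthesis climbs in inflammation, and it stores zinc on metallothioneins. Besides hepatocytes it holds Kupffer cells, sinusoidal endothelium, stellate cells, bile ducts and blood leukocytes, and spleen is in contrast a lymphoid organ of B cells, T cells and red pulp macrophages.

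On the liver arrays between 59.3% and 65.6% of spots were well above background in a channel. Spleen array 1 stood apart, with at least 93.3% of spots above background and a higher signal on negative controls, and counts that rest on the spleen level are also given with spleen array 2 alone. The NP spleen level differed between the spleen arrays by a median of 0.2 log2 units over the named genes and by at most 3.1, in Clec4f (10.1 and 7.0). A gene was represented by its brightest probe and counted as measured when, on each liver array, 1 channel or both stood well above background at that probe, which held for 16992 genes. Hepatocyte markers separated the tissues in the NP pools and less so in the low NP pools. Albumin (Alb), transthyretin (Ttr), Apoa1, Cps1 and Hnf4a had log2 levels of 17.9, 14.3, 16.9, 16.1 and 13.0 in the NP liver pool and of 14, 7.9, 10.2, 7.1 and 7.5 in the NP spleen pool. None of the 16 measured hepatocyte markers was called in liver, and their median log2 ratio of NP over low NP was 0.04.

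The ratio of a gene is given as log2 of NP over low NP on array 1, then on array 2, and their mean is followed by the distance of each array from it. A gene was called if array 1 and array 2 each reached 1.5-fold and had the same sign. By this rule 12 of the 16992 measured genes (0.0706%) were called higher and 620 (3.65%) were called lower in the NP pool. Because both arrays must pass the rule, readings of a called gene that do not overlap between pools add no support. The median ratio over all measured genes was 0.00, and 80.1% of genes had a mean ratio within 1.2-fold. The middle 95% of genes lay between -1.23 and 0.33, so the distribution had a long lower side. The arrays correlated across genes at Pearson r = 0.70, where genes share both pools and are not independent replicates. The split between directions depended on the signals used. The processed signals of the scanner software gave 303 higher and 1735 lower genes, with a median of all genes of 0.11, and the deposited value table gave 312 and 1742. On array 1 alone 344 genes reached 1.5-fold higher and 701 lower, and on array 2 alone 76 and 1910.

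**Figure D1:**
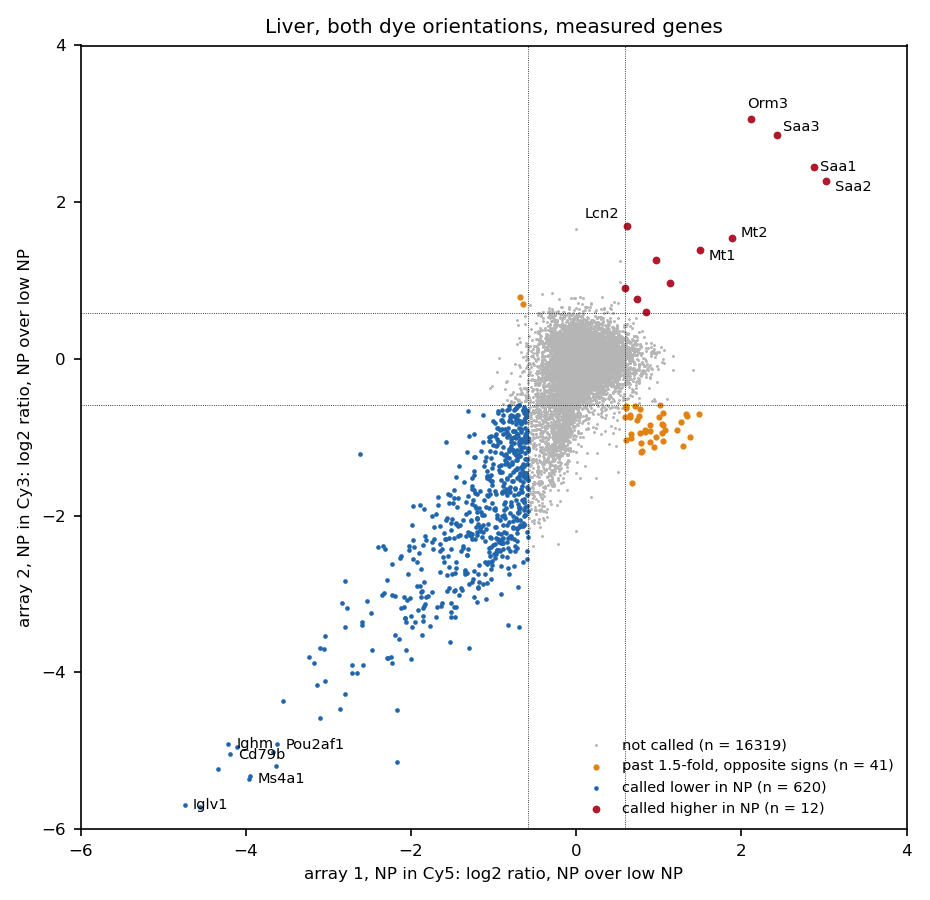
Log2 ratio of NP over low NP on liver array 1 (x axis) against array 2 (y axis), 1 point per measured gene, with dotted lines at 1.5-fold. The 12 genes called higher (red) and 620 called lower (blue) have the same sign on both arrays. Of the lower genes 575 had the larger difference on array 2. The 41 genes past 1.5-fold in opposite directions are orange.

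The 12 genes called higher fell into a small number of kinds. Saa1, Saa2, Saa3, Orm3 and Lcn2 encode acute-phase proteins, Mt1 and Mt2 encode metallothioneins, and Cyp7a1 and Cyp26a1 encode cytochromes P450 of bile acid synthesis and of retinoic acid breakdown. Mid1ip1 encodes a protein of the control of fatty acid synthesis and Dnajc12 a co-chaperone. The remaining label, LOC638251, was not matched in the RefSeq table, and the array file describes it as similar to a bile-salt sulfotransferase. A choice of 60-base probes of these genes is shown because each value below is the brightness of such a probe. Positions are those of the array file in mm7, and a span longer than the probe means that the probe crosses at least 1 intron. The Saa1 probes lie at chr7:42916901-42916960 and chr7:42916998-42917470 on the minus strand, the Saa3 probe at chr7:42888862-42888921 on the minus strand, and the Orm3 probe at chr4:62791572-62793055 on the plus strand. The Lcn2 probe lies at chr2:32392828-32393072 on the minus strand, the Mt1 probe at chr8:92769155-92769214 on the plus strand, and the LOC638251 probe at chr7:13078337-13078396 on the minus strand. No base is singled out in capitals in the probes.
Saa1, brightest probe: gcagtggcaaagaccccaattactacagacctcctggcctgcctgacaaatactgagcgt
Saa1, other probe: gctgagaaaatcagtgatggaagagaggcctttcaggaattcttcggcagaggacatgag
Saa3: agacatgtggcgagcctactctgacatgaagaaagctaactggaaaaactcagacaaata
Orm3: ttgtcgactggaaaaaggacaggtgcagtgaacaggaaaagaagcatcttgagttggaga
Lcn2: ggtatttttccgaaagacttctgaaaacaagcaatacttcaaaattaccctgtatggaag
Mt1, brightest probe: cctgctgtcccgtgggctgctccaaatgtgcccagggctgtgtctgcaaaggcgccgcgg
LOC638251: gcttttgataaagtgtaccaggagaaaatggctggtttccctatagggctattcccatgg

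**Figure D2:**
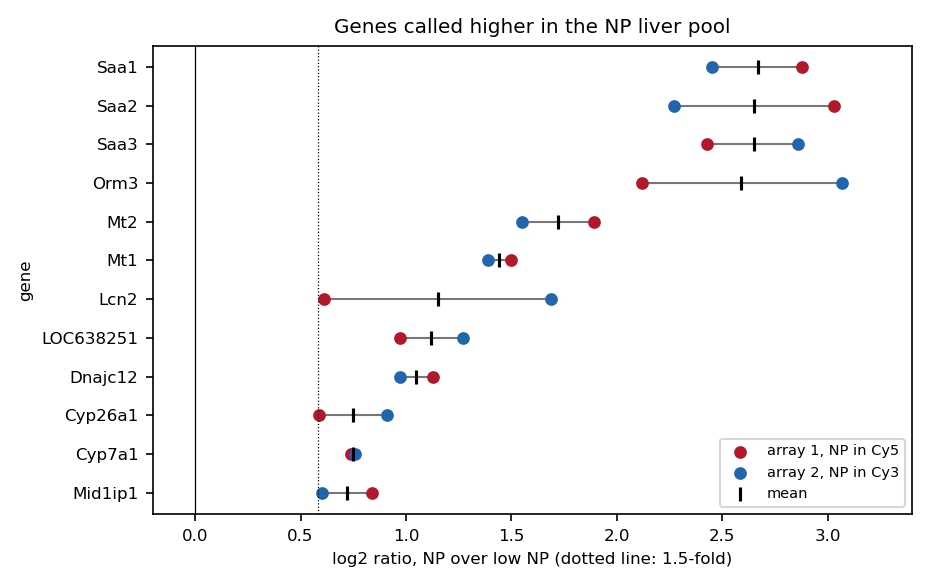
Log2 ratio of NP over low NP (x axis) on array 1 (red) and array 2 (blue) for the 12 genes called higher, with the mean as a black bar and a dotted line at 1.5-fold. Saa1, Saa2, Saa3 and Orm3 have means between 2.59 and 2.67, above the other 8 genes, and Lcn2 has arrays furthest apart.

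Serum amyloid A and orosomucoid transcripts showed the greatest difference in favour of the NP pool. Saa1, the main circulating serum amyloid A of the mouse, had log2 levels of 17.6 and 18.2 in the NP pool and of 14.7 and 15.8 in the low NP pool on arrays 1 and 2. Its ratios were 2.88 and 2.45, a mean of 2.67 ± 0.22 or 6.35-fold. Both NP readings were above both low NP readings. The other Saa1 probe gave 2.63 and 2.81. Saa2, a near copy of Saa1 made by the liver alongside it, had levels of 17.3 and 17.9 against 14.3 and 15.7, and ratios of 3.03 and 2.27 (2.65 ± 0.38, 6.27-fold). Because the genes are alike, how far each probe also reads the other transcript was not tested.

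Saa3, a serum amyloid A also made outside the liver by macrophages and fat cells, had levels of 15.3 and 15.6 in the NP pool and of 12.9 and 12.8 in the low NP pool. Its ratios were 2.43 and 2.86 (2.65 ± 0.22, 6.26-fold). Orm3, one of 3 mouse orosomucoids, which are plasma carrier proteins, had levels of 11.8 and 11.9 against 9.7 and 8.8. Its ratios of 2.12 and 3.07 averaged 2.59 ± 0.47 (6.03-fold), and its readings in the NP and low NP pools did not overlap. The orosomucoid genes differed among themselves. Orm2, of the same cluster on chromosome 4, had ratios of 0.53 and 1.25, just outside the call on array 1, and Orm1 had 0.32 and 0.79. Saa4, a form made constitutively, had no value on array 1 for its brightest probe, which was flagged there as an outlier spot, and 0.24 on array 2. The other Saa4 probe gave -0.14 and 0.41.

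Of the 6 measured genes in the list of serum amyloid A and orosomucoids, 4 were called higher and none lower, with a median of 2.62 (2.27 and 2.36 on arrays 1 and 2) against 0.00 over all genes. The sign held on each array alone and under each other scaling that was tried. In the spleen contrast, where 6.34% of 18411 measured genes were called lower and 0.0435% higher, Saa1, Saa2 and Saa3 were called lower in NP, with means of -2.46 ± 0.78, -2.78 ± 0.54 and -1.39 ± 0.60, and Orm3 was at -0.06 ± 0.22. On spleen array 2 alone they had -3.24, -3.32, -1.99 and -0.28. In the same contrast 16 of 16 measured hepatocyte markers were called lower, with a median of -6.04, and Alb had a level of 14 in NP spleen and 18.9 in low NP spleen. The part of hepatocyte transcripts in these spleen values was not tested, nor was the difference between tissues.

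Apart from Lcn2, no other acute-phase protein on the lists was called. Of 24 other positive acute-phase proteins measured, 1 was called higher and none lower, and the list's median of 0.17 was 0.31 on array 1 and -0.09 on array 2. Lcn2, lipocalin 2, which binds bacterial iron carriers, had levels of 9.6 and 9.8 in the NP pool and of 9.0 and 8.1 in the low NP pool, and ratios of 0.61 and 1.69 (1.15 ± 0.54). The value near 1.5-fold on array 1 depended on the background method, being 1.77 with no correction, 2.47 with plain subtraction and 2.94 with processed signals. Haptoglobin (Hp), which binds free haemoglobin, had ratios of 1.35 and -0.72, fibrinogen gamma (Fgg) of 1.09 and -0.51, and hemopexin (Hpx) of 0.86 and -0.07. Each of these was higher in the Cy5 channel on both arrays, whichever diet that channel held, and so gives no direction. Hamp, which encodes the iron hormone hepcidin and is also part of the acute-phase response, had 0.36 and -0.64. Fgl1, a liver-secreted fibrinogen relative, had 0.53 and 0.99 on its brightest probe, just outside the call, and 0.54 and -0.29 on its other probe.

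Negative acute-phase proteins, which are made less in inflammation, were not called either. The 12 measured had a median of -0.01, with 0.40 on array 1 and -0.24 on array 2. Alb had 0.51 and -0.90 on a probe saturated in a channel, Ttr 0.64 and 0.11, and Apoa1 -0.19 and -0.23. None of 17 measured targets of interleukin 6 and STAT3 was called (median 0.03). Socs3, the feedback inhibitor of that pathway, had 0.10 and -0.04, and Cebpd, a transcription factor induced early in the response, had 0.39 and -0.27. Targets of nuclear factor kappa B, the other main inflammatory pathway, had a median of -0.54, and 5 of 19 were called lower. Among them were Traf1, a signalling adaptor, at -1.52 and -3.23, Relb, a subunit, at -1.30 and -1.95, and Nfkb2, a subunit precursor, at -0.77 and -1.16. The inhibitor Nfkbia had -0.78 and -0.45. Of the 19 genes, 14 were brighter in NP spleen than in NP liver by at least 2-fold, and the median of the other 5 was -0.05. With spleen array 2 alone these numbers were unchanged.

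The stretch of 250 bases before the RefSeq start site was read for 9 of the 12 genes called higher, in the build GRCm38.p6. It is shown for the amyloid genes and Orm3 because these genes moved together by about the same ratio, with capitals marking matches of TTGCNNAA, a core of sites bound by C/EBP factors. The windows lie at chr7:46742981-46743230 (Saa1, minus strand), chr7:46751583-46751832 (Saa2, plus strand), chr7:46715677-46715926 (Saa3, minus strand) and chr4:63355908-63356157 (Orm3, plus strand).
Saa1 promoter: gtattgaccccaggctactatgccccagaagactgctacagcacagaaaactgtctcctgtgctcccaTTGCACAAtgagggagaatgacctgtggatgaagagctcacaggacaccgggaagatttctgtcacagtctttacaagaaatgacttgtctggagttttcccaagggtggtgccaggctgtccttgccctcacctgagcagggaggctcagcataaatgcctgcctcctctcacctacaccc
Saa2 promoter: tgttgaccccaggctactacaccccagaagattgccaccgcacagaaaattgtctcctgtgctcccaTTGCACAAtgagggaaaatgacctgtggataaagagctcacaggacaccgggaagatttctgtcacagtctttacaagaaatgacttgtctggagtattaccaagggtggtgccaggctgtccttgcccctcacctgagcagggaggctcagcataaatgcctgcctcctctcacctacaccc
Saa3 promoter: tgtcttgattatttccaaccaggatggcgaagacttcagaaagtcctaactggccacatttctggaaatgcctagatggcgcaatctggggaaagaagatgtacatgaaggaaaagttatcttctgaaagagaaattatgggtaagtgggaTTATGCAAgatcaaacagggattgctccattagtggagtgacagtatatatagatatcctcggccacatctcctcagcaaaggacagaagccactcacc
Orm3 promoter: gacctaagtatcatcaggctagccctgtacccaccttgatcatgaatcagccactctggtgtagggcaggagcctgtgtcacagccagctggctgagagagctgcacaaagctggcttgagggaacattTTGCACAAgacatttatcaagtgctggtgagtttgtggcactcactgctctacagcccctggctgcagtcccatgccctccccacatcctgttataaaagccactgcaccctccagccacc

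Both strands were searched for each motif. TTGCNNAA had 1 match in each of these windows, counted back from the start. They lay at -182 to -175 in Saa1, -183 to -176 in Saa2, -99 to -92 in Saa3 and -121 to -114 in Orm3. Of the other windows Lcn2 had 1 at -216 to -209, Mid1ip1 1 at -212 to -205 and Mt2 1 at -12 to -5. Those of Mt1 and Cyp26a1 had none. The same letters occur in 9.56% of 32851 promoter windows. The Saa1 and Saa2 windows were identical at 238 of 250 bases (95.2%), and those of Saa1 and Saa3 at 52.0%, so the first pair does not count as separate cases. GGGNNTTTC, a nuclear factor kappa B core found in 3.72% of windows, and TTCNNNGAA, a STAT core found in 7.02%, had no match in any of the 9 windows, which says only that these letters are not there.

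Metallothioneins, small proteins that bind zinc and copper, were the second group called higher. Mt2 had log2 levels of 13.4 and 13.4 in the NP pool and of 11.5 and 11.8 in the low NP pool, and ratios of 1.89 and 1.55 (1.72 ± 0.17, 3.29-fold). Mt1, its neighbour on chromosome 8, had levels of 12.5 and 12.5 against 11 and 11.1, and ratios of 1.5 and 1.39 (1.44 ± 0.05, 2.72-fold). For either gene both readings of the NP pool lay above both readings of the low NP pool. A dimmer Mt1 probe gave 0.39 and 1.33. No other of the 17 measured genes of metallothioneins and zinc handling was called, and the list's median was 0.16. Slc30a1, a zinc exporter and target of the same metal sensor, had 0.22 and 0.26, Slc39a14, a zinc importer, 0.53 and 0.27, and Mtf1, the sensor itself, 0.25 and 0.06.

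The metallothionein promoters are shown with capitals at the core of the metal response element, TGCACNC or TGCGCNC, since that element is the known route of metals to these genes. The windows are chr8:94178839-94179088 for Mt1 and chr8:94172368-94172617 for Mt2, both on the plus strand.
Mt1 promoter: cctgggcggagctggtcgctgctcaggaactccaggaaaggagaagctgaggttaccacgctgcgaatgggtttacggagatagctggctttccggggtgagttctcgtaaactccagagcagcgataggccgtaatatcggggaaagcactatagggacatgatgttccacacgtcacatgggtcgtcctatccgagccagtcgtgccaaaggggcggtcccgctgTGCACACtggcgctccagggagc
Mt2 promoter: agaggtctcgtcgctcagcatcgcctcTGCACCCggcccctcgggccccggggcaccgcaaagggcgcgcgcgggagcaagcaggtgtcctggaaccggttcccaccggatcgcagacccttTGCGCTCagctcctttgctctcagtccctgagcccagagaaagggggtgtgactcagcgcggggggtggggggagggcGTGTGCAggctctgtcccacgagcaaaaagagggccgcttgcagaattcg

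Mt2 held 3 matches, at -223 to -217, -128 to -122 and -50 to -44, and Mt1 held 1, at -23 to -17. Of all windows 21.4% hold at least 1. Among the other genes called higher, Orm3, Cyp26a1 and Mid1ip1 held 1 match each and the amyloid genes and Lcn2 held none. Mt2 also had 1 TTGCNNAA match, at -12 to -5, left in lower case, and no match of one motif overlapped a match of another in the printed windows. In spleen neither metallothionein was called, with means of -0.34 ± 0.15 for Mt2 and -0.32 ± 0.17 for Mt1.

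The remaining genes called higher are metabolic or of the folding machinery. LOC638251 had levels of 10.9 and 11 in the NP pool against 9.9 and 9.7, and ratios of 0.97 and 1.27 (1.12 ± 0.15). Dnajc12, a co-chaperone of aromatic amino acid hydroxylases, had 13.1 and 13.1 against 11.9 and 12.1, and ratios of 1.13 and 0.97 (1.05 ± 0.08). It was the sole gene called among 32 measured genes of the unfolded protein response and heat shock. Their median was -0.13, and the chaperones Hspa5 and Hsp90b1 had means of -0.38 ± 0.02 and -0.25 ± 0.17.

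Cyp7a1, whose enzyme sets the rate at which cholesterol becomes bile acids, had levels of 13.1 and 13.1 in the NP pool and of 12.3 and 12.3 in the low NP pool, and ratios of 0.74 and 0.76 (0.75 ± 0.01, 1.68-fold). Its other probe gave 0.41 and 0.68, under 1.5-fold on array 1, and Cyp7a1 was not called with the mean of its probes or with median centring of the ratios. Of 26 measured genes of bile acid synthesis and transport it was the only one called (median 0.15). Cyp8b1, the sterol 12-hydroxylase, had -0.07 and 0.38, the bile salt export pump Abcb11 0.26 and -0.12, and the uptake carrier Slc10a1 -0.01 and 0.38. Cyp26a1, which degrades retinoic acid, had levels of 10.6 and 10.7 against 10.1 and 9.8, and ratios of 0.59 and 0.91 (0.75 ± 0.16). Among 33 measured cytochromes P450 it was the only one of its list called (median 0.08). The xenobiotic markers Cyp1a1, Cyp2b10 and Cyp3a11 had means of 0.08 ± 0.02, 0.07 ± 0.04 and -0.07 ± 0.21.

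Mid1ip1, which promotes the polymerisation of acetyl-CoA carboxylase, had levels of 14 and 14.1 against 13.1 and 13.5, and ratios of 0.84 and 0.60 (0.72 ± 0.12). Of 9 other settings counted, Mid1ip1 was called under 5, the fewest among the 12 genes, and Cyp7a1 under 6. Saa1, Saa2, Saa3, Orm3, Mt1 and Mt2 were called under all 9. One of these settings, the mean of a gene's probes, could not end a call for the 9 genes with 1 measured probe, Mid1ip1 included. The genes nearest the threshold were Cyp26a1, Mid1ip1 and Lcn2 inside it and Orm2, Fgl1 and Cyb561, an electron-transfer membrane protein at 0.63 and 0.51, outside it.

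Around Mid1ip1 and Cyp7a1 the lipid genes of the liver sat slightly above 0 as lists. Of 23 measured lipogenesis genes 22 were above 0, with a median of 0.25, and Mid1ip1 alone was called. Srebf1, the transcription factor that drives them, had 0.60 and 0.44. Fatty acid synthase (Fasn) had 1.06 and 0.11 and the desaturase Scd1 0.72 and -0.29. Of 25 measured genes of cholesterol synthesis and uptake 24 were above 0 and none was called, with a median of 0.29. The last step of synthesis, Dhcr7, had 0.73 and 0.30, Idi1 0.62 and 0.32, and Sqle 0.52 and 0.31. Relative to all genes both medians stayed above 0 under each other scaling and on each array, the cholesterol list between 0.25 and 0.46. These shifts have to be read beside those of all genes brighter in liver than in spleen. Of 3022 genes at least 2-fold brighter in NP liver than in NP spleen 2769 were above 0, with a median of 0.16, and 11 were called higher and 1 lower. With spleen array 2 alone these were 2876 genes, 2635 of them above 0, with a median of 0.17. Both choices use the NP liver level, which also enters the ratio and so favours values above 0.

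None of 20 hepatocyte transcription factors was called (median 0.20). Hnf4a had 0.09 and 0.31. Genes of glucose, glycogen and fructose metabolism had a median of 0.20 with none of 21 called, and glucose-6-phosphatase (G6pc) had 0.28 and 0.39 and Pck1, a gluconeogenic enzyme, -0.08 and -0.37. None of 28 genes of fatty acid oxidation and PPAR alpha was called (median 0.01), and Cyp4a14 had -0.39 and -0.42. Markers of zones along the lobule had similar medians. Pericentral genes had one of 0.07 over 20 genes, with Cyp7a1 called and Glul at -0.30 and -0.36, and periportal genes one of 0.05 over 20, with Cps1 at 0.24 and -0.11 and Ass1 at 0.01 and 0.06. The urea cycle and amino acid list had 26 of 28 genes above 0 at a median of 0.07, and proline dehydrogenase (Prodh) had 0.50 and 0.52. Conjugating enzymes (36 genes), coagulation factors (32) and apolipoproteins (19) had no called gene and medians of 0.08, 0.10 and 0.01. Of 32 complement genes 2 were called lower, the receptor Cr2 of B cells (-1.10 and -3.07) and the leukocyte factor Cfp (-0.71 and -0.96), with a median of 0.10. Of 25 genes of iron and heme 1 was called, Hmox1, and the iron exporter Slc40a1 had -0.05 and -0.53.

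Genes that handle nucleic acids, the component that the diets differ in by design, were described in 8 lists of 114 measured genes. None was called higher and 6 (5.26%) were called lower, a share near the 3.65% of all genes. None of 13 measured genes of purine breakdown was called (median -0.01). Xanthine dehydrogenase (Xdh), which makes urate, had levels of 11.9 and 11.7 in the NP and low NP pools and ratios of -0.05 and 0.34. Urate oxidase (Uox), which removes it in mice, had 0.56 and -0.49, and adenosine deaminase (Ada) had -0.36 and -0.50. Salvage of bases and nucleosides (19 genes, median 0.04), purine synthesis (15 genes, 0.02) and pyrimidine synthesis and breakdown (15 genes, 0.10) had no called gene. The salvage enzymes Hprt and Aprt had means of 0.15 ± 0.47 and -0.06 ± 0.12. Ppat, the first step of purine synthesis, had 0.20 ± 0.12, and Cad, the first enzyme of pyrimidine synthesis, had -0.37 ± 0.02. The pyrimidine-degrading enzymes Dpyd, Dpys and Upb1 had 0.27 ± 0.08, 0.10 ± 0.16 and 0.12 ± 0.27.

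The 6 nucleic acid genes called lower were all brighter in spleen. Slc28a2, a concentrative nucleoside transporter, had -0.69 and -1.71 and log2 levels of 8.5, 9.7 and 11.8 in the NP liver, low NP liver and NP spleen pools. Samhd1, which hydrolyses deoxynucleotides, had -0.80 and -1.14 and levels of 9.7, 10.7 and 12.3. The DNA sensor adaptor Sting1 had -1.34 and -1.82 and levels of 10.3, 11.9 and 14.2. The nucleases Rnase6 and Pld4 had means of -1.86 ± 0.82 and -0.90 ± 0.21, and Rnase1, a pancreatic ribonuclease, had -0.92 ± 0.08. The equilibrative transporter Slc29a1, bright in liver, had 0.06 and 0.28, and the hepatic ribonuclease Rnase4 had 0.32 and 0.31. Tlr9, a sensor of DNA, had -0.36 and 0.47, and Tlr7, a sensor of RNA, -0.37 and -1.22. The Tlr9 probe had levels of 14.1 in both liver pools and 10.7 in NP spleen. Whether this probe also reads another transcript was not tested. The lists of transporters, deoxynucleotide supply, nucleases and sensors held 7, 9, 21 and 15 measured genes, none called higher, with medians between -0.04 and 0.01.

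The 620 genes called lower were led by genes of B lymphocytes. Iglv1, an immunoglobulin lambda variable segment, had log2 levels of 10.2 and 9.4 in the NP pool and of 14.9 and 15.1 in the low NP pool, and ratios of -4.74 and -5.69 (37.2-fold lower on average). Ighm, the heavy chain of immunoglobulin M, had levels of 11.5 and 10.9 against 15.8 and 15.8, and ratios of -4.21 and -4.91. Another probe of Ighm gave -4.07 and -4.95, and a dim probe of the same name elsewhere on chromosome 12 gave -0.11 and -0.60. Cd79b, a chain of the B cell receptor, had 10 and 9.3 against 14.2 and 14.3, and ratios of -4.19 and -5.05. Ms4a1, which encodes CD20, had -3.96 and -5.36, and Pou2af1, a B cell coactivator, -3.62 and -4.92. In each of these genes both NP readings lay below both low NP readings. The next genes by the same rank were Ltb, Ly6d, Jchain, Fcmr, S100a4, Coro1a and Cd52, with means from -3.84 to -2.98, all expressed in lymphocytes or other leukocytes. In bulk RNA, fewer cells of a type and less RNA per cell cannot be told apart.

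For several genes the NP pool gave no signal well above background on either array, so that a bound is given. Coch, which in spleen marks follicular stroma, was at least 10.7-fold lower in NP. Bcl11a, a B cell transcription factor, was at least 3.76-fold lower, Btla, an inhibitory lymphocyte receptor, at least 3.21-fold, and Hs6st2, a heparan sulfotransferase, at least 2.93-fold. The unrecognised label LOC619916 was at least 3.25-fold lower.

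By list, 22 of 26 measured B cell genes were called lower and none was above 0, with a median of -2.09 (-1.31 and -2.83 on arrays 1 and 2), against 3.65% of all genes. Their summed linear level was 18000 in NP and 98600 in low NP on array 1, and 11600 and 129000 on array 2. All 12 measured genes of antigen presentation by class II were called lower, with a median of -2.12. Cd74, the invariant chain, had -2.40 on both arrays, H2-Aa -2.33 and -2.38, and the regulator Ciita -1.88 and -2.98. The B cell list kept its direction under each scaling tried and was larger with processed signals, where 26 of 26 were called with a median of -4.08, and with plain subtraction, where the median was -3.65. Of 27 measured T cell genes 14 were called lower (median -1.38), among them Cd8b1 (-2.80 and -4.28), Cd3d (-1.91 and -3.21) and the kinase Lck (-1.64 and -3.16). With processed signals 22 T cell genes were called, with a median of -3.15. Probes of Cd3e and Cd4 were dim in all pools, with levels of at most 8.9, and had means of -0.08 ± 0.09 and -0.06 ± 0.07. Of 20 genes of natural killer and cytotoxic cells 7 were called lower (median -0.72), and 20 of 20 with processed signals (median -2.63) or with plain subtraction (median -1.92), with Ccl5 at -2.53 and -3.09 and Nkg7 at -1.29 and -2.22. Of 14 immunoglobulin and plasma cell genes 6 were lower, and Jchain, which links polymeric antibodies, had -3.14 and -4.16, while the plasma cell marker Sdc1, which hepatocytes also express, had 0.00 and 0.38. Of 15 dendritic cell genes 5 were lower, including Cd83 (-2.05 and -3.07) and Irf8 (-1.90 and -2.48).

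Genes of other cell types were also among the lower ones. Chemokines of lymphoid stroma were lower, with Ccl19 at -2.59 and -3.39 and Cxcl13 at -1.33 and -2.50, and 4 of 15 genes of that list were called. Of 13 markers of splenic red pulp macrophages, which recycle iron from red cells, 5 were called lower. The defining transcription factor Spic had levels of 9.7, 11.8 and 15 in the NP liver, low NP liver and NP spleen pools and ratios of -1.74 and -2.43. Vcam1 had -2.12 and -2.51, and Hmox1, which breaks down heme, had -1.48 and -1.67. Of 20 erythroid genes 3 were lower. Hba-a1, an alpha globin, had -1.75 and -2.01, and the red cell anion exchanger Slc4a1 -0.69 and -1.91. Of 17 megakaryocyte and platelet genes 5 were lower, and Pf4 and Ppbp had means of -1.39 ± 0.58 and -1.78 ± 0.74. Of 18 neutrophil genes 1 was called lower and 1 higher, against 3.65% and 0.0706% of all genes, and 16 were below 0 (median -0.23). With processed signals 12 were called lower and 2 higher (median -1.67), and with plain subtraction 10 and 2 (median -1.05). The genes called in the main setting were S100a9, a calprotectin chain, at -1.73 and -2.14, and Lcn2. The granule gene Ngp, dim in both liver pools at levels of 7.7 and 7.8, was at -0.06 and -0.02.

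**Figure D3:**
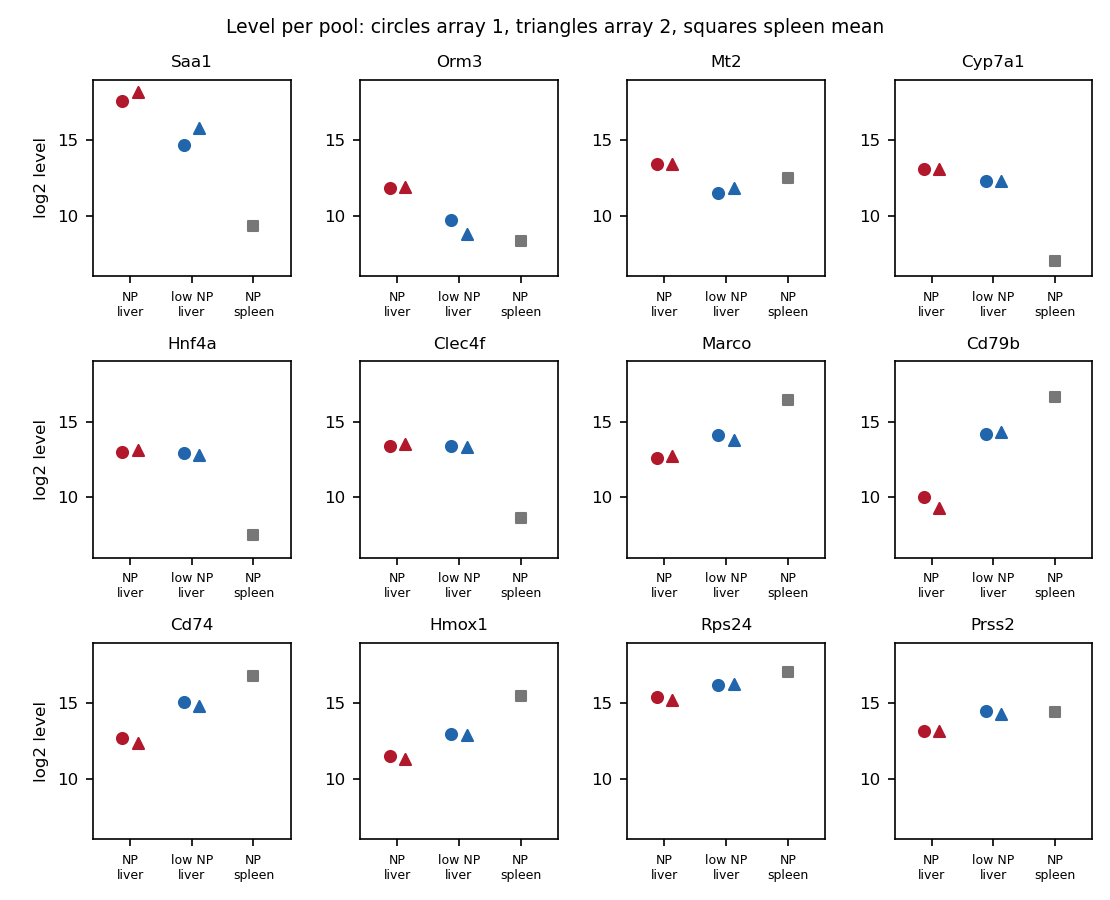
Normalized log2 level (y axis) of 12 genes in the NP liver pool (red) and the low NP liver pool (blue), circles for array 1 and triangles for array 2, with the mean of the NP spleen pool as a grey square. Cd79b, Cd74, Marco, Hmox1 and Rps24 lie in the low NP liver pool between NP liver and NP spleen, while Clec4f and Hnf4a are alike in both liver pools.

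Nearly all of the lower genes were brighter in NP spleen than in NP liver, a comparison that the call itself favours. The NP liver level enters both, so a low NP liver level moves a gene towards both. Try5, for instance, counted as 2-fold brighter in NP spleen at 14.6 against 13.4, though low NP liver stood at 14.9. Of the 620, 609 (98.2%) were at least 2-fold brighter in NP spleen than in NP liver, against 15.4% of the other measured genes. With spleen array 2 alone the numbers were 605 genes and 16.2%. In 606 of the 620 the low NP liver level lay below that of NP spleen, or in 602 with spleen array 2 alone. None of the 12 genes called higher was brighter in spleen by 2-fold. Among the 13857 genes that were not, 12 were called higher and 11 lower, and with spleen array 2 alone 12 and 15 of 13728. In the spleen contrast 28 of the 620 genes were called lower and 1 was called higher. Of all 18411 genes measured there, 1167 (6.34%) were called lower and 8 (0.0435%) higher.

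The share called lower grew with the difference between tissues. It was 10 of 10835 genes (0.0923%) within 2-fold of each other in NP spleen and NP liver, 39 of 1904 (2.05%) from 1 to 2 log2 units brighter in spleen, and 362 of 1014 (35.7%) from 2 to 4 units. It was 193 of 201 (96.0%) from 4 to 6 units, with a median ratio of -2.06, and 15 of 16 beyond 6 units, with a median of -4.11. The NP liver level enters both quantities, so that its own error and any lower NP liver level add to this relation. In the range from 4 to 6 units the low NP liver pool lay a median of 2.47 log2 units below NP spleen, with the middle 50% of genes between -2.59 and -2.28, and beyond 6 units the median was -2.53. With spleen array 2 alone the shares called lower were 0.129%, 1.85%, 34.4%, 95.6% and, beyond 6 units, 14 of 15 genes. Single genes lay further from their spleen level, such as S100a9 with log2 levels of 12.7 in low NP liver and 17.1 in NP spleen. The part of spleen, lymphoid and blood cell transcripts in the results on other genes was not tested.

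**Figure D4:**
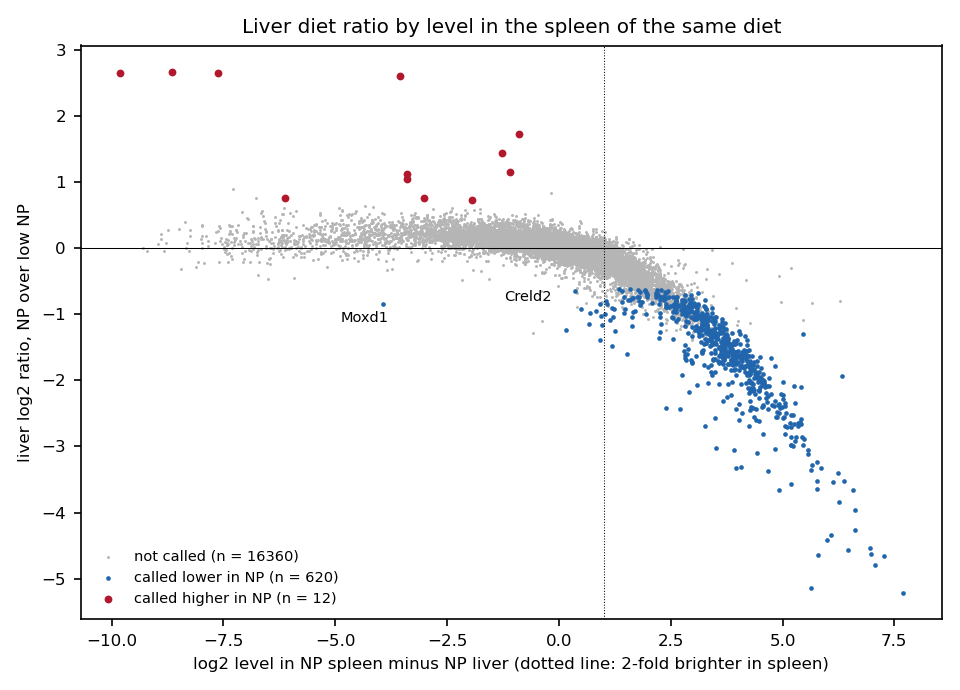
Mean log2 ratio of NP over low NP in liver (y axis) against the log2 level in NP spleen minus that in NP liver (x axis), 1 point per measured gene, dotted line at 2-fold brighter in spleen. Nearly all of the 620 genes called lower (blue) lie right of the line and are lower the further right they lie. The 12 called higher (red) lie left of it. The NP liver level enters both axes.

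Resident cells of the liver were read through their own markers. For Kupffer cells, the resident macrophages, values differed with how bright the marker was in spleen, and no difference from the lymphoid lists was tested. Clec4f had log2 levels of 13.4 in NP liver, 13.3 in low NP liver and 8.6 in NP spleen and ratios of -0.05 and 0.25, and Vsig4 had 11.8, 11.6 and 8.5 and ratios of 0.24 and 0.12. Marco, a scavenger receptor that marginal zone macrophages of spleen also carry, had 12.6, 14 and 16.4 and ratios of -1.58 and -1.06, and Csf1r, shared by all macrophages, had -0.77 and -0.80. Timd4, a receptor for dying cells, had -0.39 and -0.71 and Cd5l, a secreted macrophage protein, -0.23 and 0.02. Over the list of 19 genes 14 were below 0 and 3 were called lower, with a median of -0.29, and with median centring 1 was called and the median was -0.03. The 8 genes that were not 2-fold brighter in spleen, a choice that uses the NP liver level, had a median of 0.04. The summed linear level of the list was 125000 in NP and 156000 in low NP on array 1, and 128000 and 152000 on array 2.

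Among 19 markers of sinusoidal endothelium none was called (median 0.10), and Stab2, Lyve1 and Clec4g had means of -0.10 ± 0.09, 0.37 ± 0.20 and 0.10 ± 0.06. Among 23 markers of stellate cells and fibroblasts 2 were called lower, the collagen Col1a2 (-0.75 and -1.17) and the smooth muscle actin Acta2 (-0.74 and -0.63), both over 2-fold brighter in spleen. Lrat and Reln, which mark quiescent stellate cells, had 0.23 ± 0.22 and 0.18 ± 0.22. Of 14 bile duct markers only Cd24a, a surface protein that B cells and red cell precursors also carry, was called (-1.61 and -2.59), and the keratins Krt7 and Krt19 had 0.05 ± 0.00 and 0.07 ± 0.02.

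Some of the cell's general machinery was also lower. Cytosolic ribosomal proteins were below 0 in 59 of 59 measured genes, with a median of -0.64, and 11 were called lower. Rps24 had levels of 15.3, 16.3 and 17.1 in NP liver, low NP liver and NP spleen and ratios of -0.79 and -1.11, and Rpl13 had -0.73 and -0.83. Of the 59 genes 56 were at least 2-fold brighter in NP spleen, or 51 with spleen array 2 alone. With median centring of the ratios none of the 59 was called and the list stood at -0.35 relative to all genes. The 3 genes not 2-fold brighter in NP spleen had a median of -0.64 as well. Mitochondrial ribosomal proteins had a median of 0.06 with none of 32 called, and of 48 respiratory chain genes none was called (median -0.02). Of 36 genes of the cell cycle 7 were called lower (median -0.56), including Mki67 (-1.46 and -2.60) and Mcm6 (-1.08 and -1.43), and 30 of the 36 were brighter in spleen by 2-fold, or 31 with spleen array 2 alone. With processed signals 25 were called and with median centring 2. Ccnd1, the cyclin of hepatocyte regeneration, had -0.17 and -0.15. Of 24 immediate early genes 5 were lower (median -0.22), with Ier5 at -1.44 and -1.78, and Fos had 0.02 and -0.27. Of 34 interferon-induced genes 3 were called lower (median -0.11), among them Irf8 and Tgtp1, and Ifit1, Ifit3 and Isg15 had means of 0.26 ± 0.12, 0.05 ± 0.00 and 0.11 ± 0.18.

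Digestive enzymes of the exocrine pancreas formed a further group that was lower in the NP liver pool. Of 13 measured pancreatic proteases 12 were called lower and none was above 0, and the median was -0.99 (-0.98 and -0.99 on arrays 1 and 2). With median centring none of the 13 was called, at a median of -0.73, and 1 gene of the list of lipases, amylase and Reg proteins. Prss2, a trypsinogen, had log2 levels of 13.2 in NP liver, 14.4 in low NP liver and 14.4 in NP spleen, and ratios of -1.33 and -1.19. The procarboxypeptidase Cpa1 had -0.97 and -0.95, the trypsinogen Try5 -1.45 and -1.50, and the elastase Cela3b -1.03 and -1.27. Of 21 lipases, amylase and Reg proteins 9 were called lower, with a median of -0.83 (-0.56 and -0.93 on arrays 1 and 2), with Pnlip, pancreatic lipase, at -1.09 and -1.25 and Amy2 at -1.23 and -1.26. Of the 13 proteases 6 were at least 2-fold brighter in NP spleen than in NP liver, and the other 7 had a median of -0.96. With spleen array 2 alone 4 were, and the other 9 had a median of -0.96. In Prss2, Cpa1, Try5, Cela3b and Amy2 the low NP liver level was at or above that of NP spleen. It was below that of low NP spleen in each. Low NP liver had 14.4, 15.3, 14.9, 15.8 and 17.0, and low NP spleen 16.6, 17.3, 17.1, 17.8 and 18.4. Among the 620 lower genes 11 were not 2-fold brighter in NP spleen, and 8 of these belong to the lists of neighbouring organs. In the spleen contrast the proteases were lower too, 13 of 13 measured, with a median of -2.15.

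Other parts of the pancreas had no called gene in liver in the main setting. Ins1, Gcg, Sst and Ppy, the islet hormones, were below the measurement rule in liver, and Ins2 had 0.02 and 0.05 at a level of 7.8. The acinar regulator Ptf1a was not measured, and none of 5 measured acinar regulators was called (median 0.11, lowest mean -0.78). With processed signals, plain subtraction or no background correction 1 of the 5 was called lower. With processed signals 2 of 7 measured islet genes were called higher. The summed linear level of the proteases was 177000 in NP and 366000 in low NP on array 1, and 170000 and 369000 on array 2. The part of pancreatic transcripts in the other results was not tested.

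Besides these, 3 of the lower genes were neither 2-fold brighter in NP spleen than in NP liver nor in a list of a neighbouring organ. Of these, 2210010C04Rik and Creld2 were brighter in NP spleen by 0.94 and 0.35 log2 units, short of 2-fold. Creld2, a secreted factor of the endoplasmic reticulum stress response, had levels of 13.9 and 14 in the NP pool and of 14.6 and 14.6 in the low NP pool, and ratios of -0.65 and -0.65. It is also among the 6 lower genes of the list of immunoglobulins and plasma cells. Moxd1, a monooxygenase related to dopamine beta-hydroxylase, had 11.3 and 11.1 against 12.0 and 12.1, and ratios of -0.71 and -0.98. Its NP spleen level of 7.3 was far below that in liver, so it was the only lower gene at least 2-fold brighter in liver than in spleen. The third, 2210010C04Rik, had -1.05 and -1.0 and is a trypsinogen gene, so it belongs with the pancreatic proteases by kind though not on the list.

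**Figure D5:**
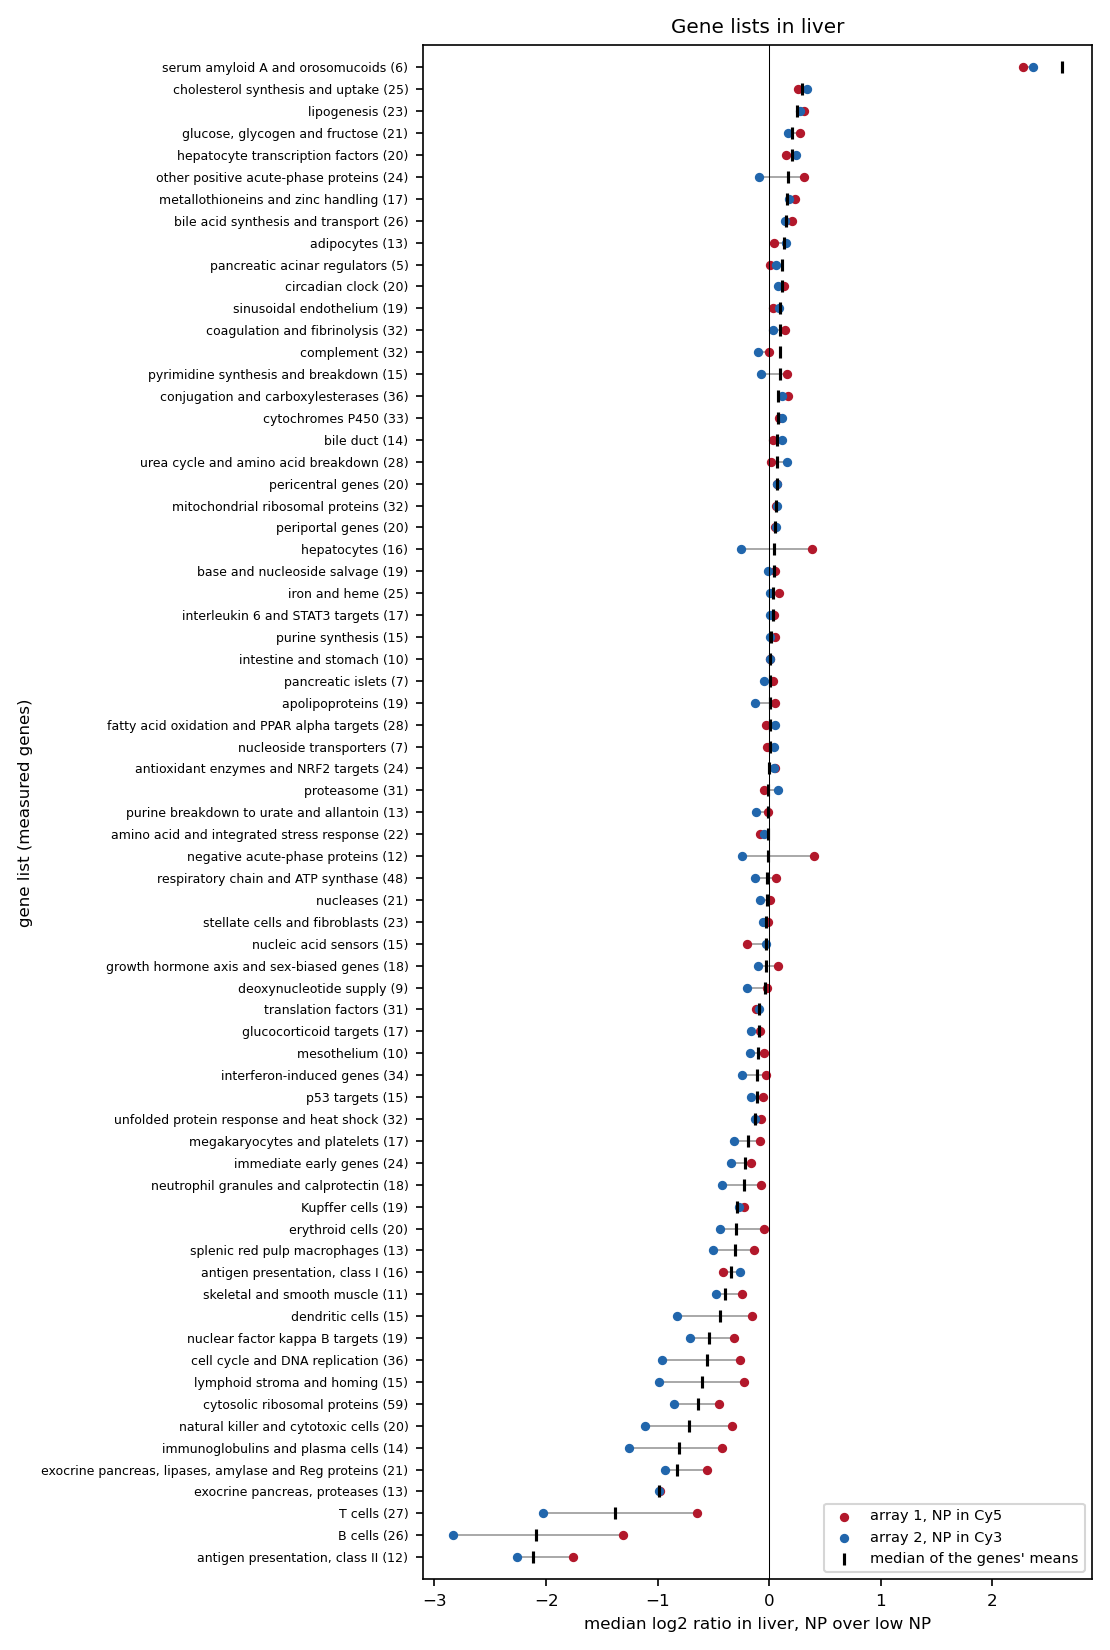
Median log2 ratio of NP over low NP in liver (x axis) on array 1 (red) and array 2 (blue) for 69 gene lists, ordered by the median of the genes' mean ratios (black bar), with the number of measured genes in brackets. Serum amyloid A and orosomucoids stand at 2.62, lists of B cells and class II antigen presentation below -2, and most metabolic lists near 0.

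The arrays were also compared with each other. The median distance of an array from the mean was 0.10. Array 2 gave the larger difference in 575 of the 620 lower genes, whose medians were -0.98 on array 1 and -1.96 on array 2. Past 1.5-fold in opposite directions were 41 genes, 39 of them higher in Cy5 on both arrays, with a median log2 level of 17.25 against 9.94 for all genes. Fabp1, the liver fatty acid binding protein, had 1.29 and -1.11, Akr1c6 1.05 and -1.04, and Ambp 1.38 and -1.0. For these bright transcripts no difference between diets was detectable. On 8 genes, among them Alb, Apoe, C3 and Mup1, a channel was saturated.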

How the data were processed

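The deposited scanner files hold the intensity of each spot in both dyes as mean foreground and median local background, per the file headers, read with Agilent Feature Extraction 9.5.3.1, per the submitters' processing notes. They also carry, per the file headers, a processed intensity for each dye and the log10 of red (Cy5) divided by green (Cy3). A separate table of log10 values was deposited without a stated method. Against the scanner ratio its columns correlated at -0.992, 0.991, -0.993 and 0.998, so every column runs as low NP divided by NP, and their medians were 0.02, -0.07, -0.01 and -0.04. Its scale is that ratio's, rounded, and between 1.5% and 21% of its values differed beyond rounding, for a reason that stays unknown.

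Each array had 45018 spots, of which 1639 were controls, and 180 spots per liver array carried outlier flags. With limma 3.58.1 in R 4.3.3 the background was corrected by normexp (offset 50), and loess within each array normalized the log2 ratios, with controls and outliers at weight 0. Ratios were oriented as NP divided by low NP, and spots of a probe averaged. Levels are log2 signals per channel after loess and Aquantile scaling. A bound compares the bright pool with the dim probe's own signal or, if larger, the lowest signal well above background on that array, and are open to dye bias, balanced by the swap. Probes were named through RefSeq (GRCm38.p6, names only): 23082 by accession, 6582 by symbol, 3073 by synonym, while 8437 stayed as the array file names them. Of the resulting 27666 gene labels 19512 were recognised. Promoter windows come from RefSeq, build GRCm38.p6. Tables were made with Python 3.11.15, pandas 2.3.3 and numpy 2.4.6 and figures with matplotlib 3.10.9.

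The 4 arrays lie on 1 slide, so no batch could be examined, and their number limits the precision. The members, the 69 gene lists and the alternatives were chosen with earlier results of these data known. Named genes are all recognised genes called higher, the 12 lower genes with the largest smaller ratio of the arrays and the 5 largest bounds. Also named are key members and up to 4 called members of each list and the 3 largest opposite ratios. Further ones are the 3 recognised genes nearest 1.5-fold on each side and lower genes not 2-fold brighter in spleen. LOC638251, Orm1 and the other probes of a gene were named after their values were seen. Some genes that the rule names are not reported here.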

Additional observations from a re-analysis of the deposited data

Results flagged for a closer look

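For 12 gene lists the median log2 ratio of NP over low NP was at least 0.1 in size on every array and had one sign in liver and the opposite sign in spleen. Whether the tissues differ was not tested. Serum amyloid A and orosomucoids stood at 2.62 in liver and -2.78 in spleen, and metallothioneins and zinc handling at 0.16 and -0.12. The metabolic lists of hepatocytes were slightly above 0 in liver and far below 0 in spleen. They were hepatocyte transcription factors at 0.20 and -1.76, cholesterol synthesis and uptake at 0.29 and -1.02, and lipogenesis at 0.25 and -1.24. Glucose, glycogen and fructose genes stood at 0.20 and -2.21, bile acid synthesis and transport at 0.15 and -2.61, and conjugation and carboxylesterases at 0.08 and -2.63. In the other direction, class II antigen presentation stood at -2.12 in liver and 0.16 in spleen and natural killer and cytotoxic cells at -0.72 and 0.10. Cell cycle genes stood at -0.56 and 0.19 and targets of nuclear factor kappa B at -0.54 and 0.11. In spleen 16 of 16 measured hepatocyte markers were called lower, with a median of -6.04, and in liver 22 of 26 B cell genes were; their part in these values was not tested. Whether the 2 arrays of a tissue held separate pools is not stated in the labels, and the spleen medians include the array that stood apart.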

How the results depend on the processing

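The number of genes called higher was 12 and that of genes called lower 620. Higher and lower genes numbered 44 and 1745 with plain background subtraction, 303 and 1735 with processed signals, 312 and 1742 with the deposited table, and 6 and 296 at 2-fold. Lower genes numbered 1325 with no background correction, 324 with median centring in place of loess and 11 without genes 2-fold brighter in NP spleen. The cause of these shifts was not tested, apart from the stricter fold and the smaller gene set. With 1 liver array left out the counts ranged from 76 to 344 higher and from 701 to 1910 lower. All 12 higher genes were among those called with plain subtraction, 11 of 12 with processed signals and 10 of 12 with median centring. Over the remaining settings (an offset of 16, both channels above background, no filter, the mean of a gene's probes) both counts stayed within 1.5-fold. No named gene that was called changed sign. The medians of several lists did, among them other positive acute-phase proteins (0.17, and -0.09 on array 2 alone), complement (0.10 and -0.10 there), glucocorticoid targets (-0.09, and 0.05 with median centring) and the unfolded protein response (-0.13 and 0.10). With spleen array 2 alone or array 1 alone, a choice added after seeing the data, 605 and 617 lower genes were brighter in spleen. No paired analysis was possible because the result comes from no test, and the labels do not say whether the pools of the 2 arrays differ. Dim probes limit ratios to bounds, and bright hepatocyte probes limit them through dye.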

Other observations

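Regulators that answer to hormones, daytime and stress were close to level between diets in liver. None of 20 measured clock genes was called, with a median of 0.11. Dbp, an output of the clock, had 0.17 and 0.16, Nr1d1 0.11 and 0.11, Per2 0.22 and 0.05, and Arntl, which peaks in the opposite phase, -0.10 and -0.41. Of 17 glucocorticoid targets 1 was called lower (median -0.09), Ddit4 at -0.71 and -0.99, while Fkbp5 had 0.05 and -0.24 and Tat 0.20 and -0.16. None of 18 genes of the growth hormone axis was called, and Igf1 had -0.07 and -0.02. Of 22 genes of the amino acid and integrated stress response 3 were lower, led by Phgdh, the first enzyme of serine synthesis, at -1.56 and -2.76 with a level of 13.4 in NP spleen. Fgf21, a fasting hormone, had 0.34 and 0.25, and Trib3 -0.05 and 0.20.

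Among lists of neighbouring tissues, adipocyte genes were not called (13 genes, median 0.13), and Adipoq had levels of 9.0 and 8.8 in the NP and low NP pools. The mesothelial markers Msln and Upk3b had means of -0.09 ± 0.03 and -0.05 ± 0.00, while Slpi of the same list, which leukocytes and spleen also express, had -2.80 and -3.42. Of 11 measured genes of skeletal and smooth muscle 9 were below 0 (median -0.40), and Acta2 alone was called, at -0.74 and -0.63. In this list 9 genes were at least 2-fold brighter in NP spleen. Ckm of skeletal muscle was not measured, and Acta1 had -0.06 and -0.36. Of 10 measured genes of intestine and stomach (median 0.01) 1 was called lower, Lyz1 at -1.97 and -1.88. Its levels were 12.6 in NP liver and 16.5 in NP spleen. The intestinal marker Fabp2, which was bright in liver, had 0.07 and -0.13, and Lgals4 had 0.01 and -0.01.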
